A study of Mus musculus with 23 samples.

Results

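Aortic endothelial cells kept in plasma of ApoE-Stab2-KO mice were compared with the same kind of cells kept in plasma of ApoE-Stab1-KO mice. The comparison took the 6 arrays whose plasma label is ApoE-Stab2-KO and the 6 whose label is ApoE-Stab1-KO, out of 23 arrays in all, and covered the 24704 genes with a symbol. The cells were primary mouse aortic endothelial cells (MAOEC) from a commercial supplier, and the strain label is C57BL/6J. After growth to confluence, the serum of the medium was replaced for 48 h by 10% plasma. Plasma donors of both groups lacked apolipoprotein E and had eaten Western diet for 8 weeks, and they differed in whether Stabilin-1 or Stabilin-2 was missing as well. Other groups stand beside them: plasma of ApoE-KO mice on the same diet (5 arrays) and of wildtype mice (6 arrays), for which the labels give no diet. Each genotype is that of the plasma donor, not of the cells, whose own Apoe, Stab1 and Stab2 genes were not targeted according to the labels. The labels do not say whether replicates were separate cultures, wells or plasma donors, so every p-value below reflects only how far these samples spread, and that spread may be technical.

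Stabilin-1 and Stabilin-2 are large scavenger receptors best known from the sinusoidal endothelium of liver and spleen, where they take up circulating macromolecules for degradation in lysosomes. Their ligands include modified lipoproteins, matrix proteins such as TGFBI and periostin, and, for Stabilin-2, hyaluronan. Loss of a Stabilin can leave more of its ligands in the blood. The comparison asks how far the RNA of endothelial cells differs with the Stabilin that the plasma donor lacked.

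Levels are log2 values made by the RMA method, in which a difference of 1 is a 2-fold difference, and each difference is ApoE-Stab2-KO minus ApoE-Stab1-KO with its standard error (SE). Across the 24704 genes, 12 passed limma at a Benjamini-Hochberg adjusted p under 0.05, which is 0.0486% of the genes. With ApoE-Stab2-KO plasma 9 of them were higher (0.0364%) and 3 were lower (0.0121%). The higher genes were the microRNA gene Mir1896, the long non-coding RNA genes Gm16617, 2610020C07Rik, Gm13609 and Gm34921, the small nucleolar RNA gene Snord68, the pseudogenes Rpl36-ps3 and Gm4540, and Ecsit. The lower genes were Aph1b, Cgn and the long non-coding RNA gene A230072E10Rik. Only Ecsit, Aph1b and Cgn of the 12 encode proteins. In 6 of the 12 the difference was over 1.5-fold, and in Mir1896 alone it was over 2-fold. Over the 23 arrays, 9 of the 12 had a mean level above the median of all genes, 4.30. Gm16617, Gm34921 and A230072E10Rik were dimmer than that median. The median is not a detection level, and none was set here, so a level above it does not show that a gene was expressed.

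Most genes lay close to each other in the 2 plasmas. The 95% interval of the difference stayed within 1.5-fold either way for 24231 genes (98.1%) and within 1.2-fold for 18195 (73.7%). At an unadjusted p under 0.05 there were 2712 genes (11% of those tested), 1285 higher (5.2%) and 1427 lower (5.78%), where 1235 would be expected by chance. For 199 genes (0.806%) the 6 arrays of one plasma did not overlap the 6 of the other, 105 with ApoE-Stab2-KO plasma higher (0.425%) and 94 with it lower (0.381%). The same fit gave 1 gene for ApoE-Stab1-KO against ApoE-KO plasma (0.00405%), 6 for ApoE-Stab2-KO against ApoE-KO plasma (0.0243%) and 131 for ApoE-KO against wildtype plasma (0.53%). These comparisons share arrays with each other and with the one described here.

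**Figure D1:**
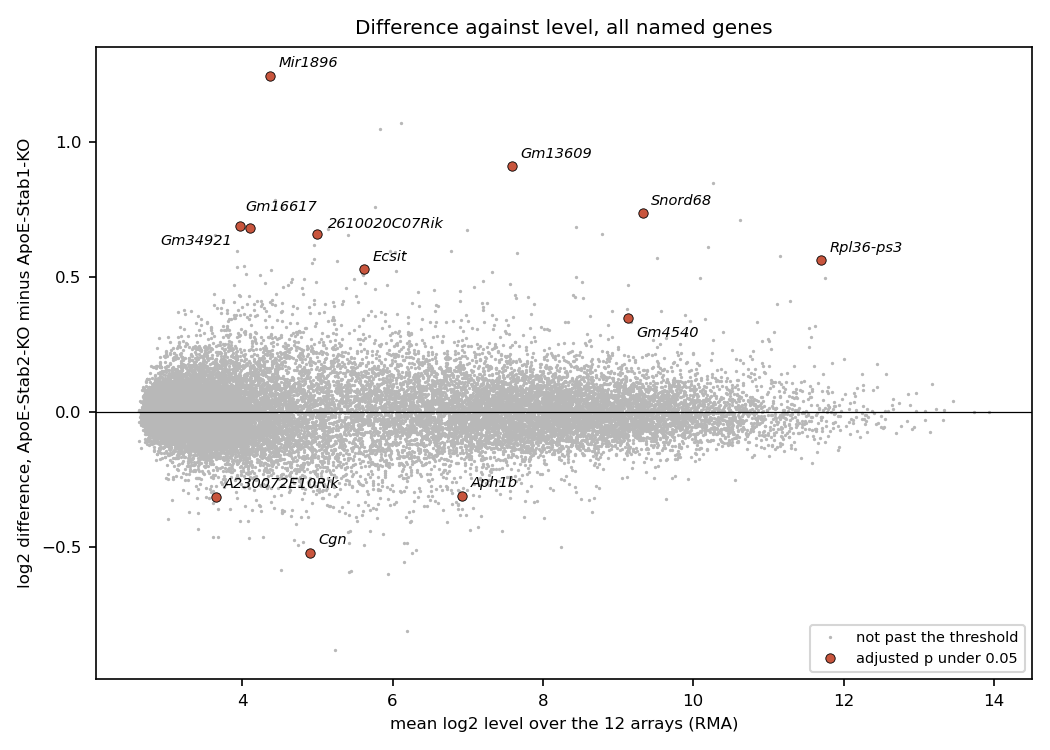
Each point is a gene, with its mean log2 level over the 12 arrays on the horizontal axis and its log2 difference (ApoE-Stab2-KO minus ApoE-Stab1-KO) on the vertical axis. The 12 genes past an adjusted p of 0.05 are named in red, from Mir1896 at 1.25 to Cgn at -0.52, and grey points near or beyond them are genes whose spread between arrays kept them from passing.

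Marker lists of endothelial and other cells were read to see whether their levels differed between the plasmas. Each is compared only between the plasmas, since levels of different probe sets cannot be set against each other. The 8 general endothelial markers, among them Pecam1, Cdh5 and Kdr, averaged 11.37 ± 0.07 (SD, n = 6) in ApoE-Stab1-KO arrays and 11.40 ± 0.03 (SD, n = 6) in ApoE-Stab2-KO arrays. Marker lists of other cells gave, with ApoE-Stab1-KO and ApoE-Stab2-KO plasma, 4.88 and 4.89 for 8 smooth muscle markers, 4.15 and 4.11 for 7 fibroblast markers, and 4.53 and 4.55 for 7 macrophage and leukocyte markers. The 6 red blood cell and platelet markers averaged 4.52 and 4.47, and 6 liver cell markers 3.59 and 3.64. No marker passed the test. At an unadjusted p under 0.05, 2 fibroblast markers (28.6%) and 1 red blood cell and platelet marker (16.7%) were lower. Higher were 1 general endothelial (12.5%), 1 smooth muscle (12.5%) and 1 macrophage and leukocyte marker (14.3%). So was 1 of 8 arterial endothelial markers (12.5%). Among all genes 5.78% were lower and 5.2% higher. Since these are bulk samples, fewer cells of a type and less RNA per cell cannot be told apart.

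One array stood apart from the rest. On the first principal component of all 23 arrays (12.4% of the variance), ApoE-Stab1-KO replicate 1 had a score of 29.2, while the other 5 ApoE-Stab1-KO arrays lay between -11.6 and 0.35. The median SD of a gene was 0.12 among the ApoE-Stab1-KO arrays and 0.10 among the ApoE-Stab2-KO arrays, and 65% of genes varied more in the former. Without ApoE-Stab1-KO replicate 1, 37 genes passed limma, 22 higher and 15 lower, and the 12 named above were all among them. Without ApoE-Stab1-KO replicate 4, 32 passed, again with all 12 among them. The fewest, 8, passed without ApoE-Stab1-KO replicate 3. When the fit used only the 12 arrays of the 2 plasmas, 4 genes passed: Mir1896, Gm16617, Gm13609 and 2610020C07Rik.

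Mir1896 is the gene of the microRNA miR-1896. A microRNA precursor folds into a hairpin, from which a short mature strand is released that pairs with messenger RNAs mainly through its seed. The sequences below, from RefSeq on GRCm38.p6, are shown because this gene had the largest difference of all genes. The mature strand lies at chr13:21445209-21445230 on the plus strand, and bases 2 to 8, the seed, are in capitals.
mmu-miR-1896: cUCUCUGAuggugggugaggag
The hairpin lies at chr13:21445160-21445240 on the plus strand, with the mature strand in capitals.
Mir1896 hairpin: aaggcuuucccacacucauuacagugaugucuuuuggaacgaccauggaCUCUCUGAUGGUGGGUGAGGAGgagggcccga
Of 1738 mature mouse microRNAs in the same table, 1 had this seed, miR-1896 itself. The labelling protocol makes cRNA from total RNA, and nothing in the sources used here says whether the probe set reads the mature strand, the hairpin or a longer transcript through it. The log2 level of Mir1896 lay between 3.56 and 3.96 (median 3.75) in the 6 ApoE-Stab1-KO arrays and between 4.71 and 5.36 (median 5.02) in the 6 ApoE-Stab2-KO arrays. All 6 ApoE-Stab2-KO arrays were thus above every ApoE-Stab1-KO array, with a wide gap between the groups. The 6 ApoE-Stab1-KO arrays lay below the median level of all genes, 4.30. The difference was 1.25 ± 0.15 (SE), or 2.37-fold (limma adjusted p = 0.000694). In ApoE-KO plasma the level ran from 3.63 to 4.79 (mean 4.05 ± 0.45, SD, n = 5), and in wildtype plasma from 4.33 to 4.97 (mean 4.57 ± 0.29, SD, n = 6). The gene lies within the protein-coding gene Zscan26, which encodes a zinc finger protein, and Zscan26 itself differed by 0.04 ± 0.10 (95% interval -0.17 to 0.25, adjusted p = 0.93).

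Gm16617, a long non-coding RNA gene, lies within the protein-coding gene Arhgef40. Its level was 3.5 to 3.96 (median 3.81) with ApoE-Stab1-KO plasma and 4.36 to 4.54 (median 4.41) with ApoE-Stab2-KO plasma. The groups did not overlap, and the 6 ApoE-Stab2-KO arrays lay within a narrow band. The difference was 0.68 ± 0.09 (1.60-fold, adjusted p = 0.00192). ApoE-KO arrays, at 3.56 to 4.10, lay near the ApoE-Stab1-KO arrays, and wildtype arrays, at 4.40 to 4.88, near the ApoE-Stab2-KO arrays. Arhgef40 differed by -0.00 ± 0.06 (95% interval -0.12 to 0.11).

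Gm13609 lies within Nup214, the gene of a nuclear pore protein. Its arrays ran from 6.76 to 7.48 (median 7.14) with ApoE-Stab1-KO plasma and from 7.92 to 8.21 (median 8.03) with ApoE-Stab2-KO plasma. No array of one plasma reached the other, and the difference was 0.91 ± 0.14 (1.88-fold, adjusted p = 0.00487). Nup214 differed by -0.10 ± 0.05 in the opposite direction and did not pass (adjusted p = 0.441). Wildtype arrays of Gm13609 lay at 7.87 to 8.90 and ApoE-KO arrays at 7.03 to 7.61.

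2610020C07Rik overlaps Gspt1, which encodes a translation termination factor. Its level was 4.44 to 5.04 (median 4.62) with ApoE-Stab1-KO plasma and 5.09 to 5.50 (median 5.34) with ApoE-Stab2-KO plasma, a difference of 0.66 ± 0.09 (1.58-fold, adjusted p = 0.00256). The groups were separate but nearly touched, since ApoE-Stab1-KO replicate 2 stood close below the lowest ApoE-Stab2-KO array. Gspt1 differed by 0.11 ± 0.07 (adjusted p = 0.634). Gm34921 overlaps Dusp6, the gene of a phosphatase that switches off ERK. It ran from 3.39 to 4.18 (median 3.52) and from 4.12 to 4.47 (median 4.34), and it alone among the 12 genes had overlapping arrays. Its difference was 0.69 ± 0.12 (1.61-fold, adjusted p = 0.0163, and 0.0548 without ApoE-Stab1-KO replicate 3), and that of Dusp6 was 0.08 ± 0.04 (adjusted p = 0.438).

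A230072E10Rik overlaps Wnk3, the gene of a kinase that regulates ion transport. It was lower with ApoE-Stab2-KO plasma: 3.63 to 3.91 (median 3.81) in ApoE-Stab1-KO arrays and 3.42 to 3.6 (median 3.47) in ApoE-Stab2-KO arrays. The groups did not overlap. The difference was -0.31 ± 0.06 (adjusted p = 0.0269), and Wnk3 differed by 0.01 ± 0.04 (adjusted p = 0.927). This call was the least stable of the 12: it passed in 4 of the 12 fits that left out 1 array. It failed without ApoE-Stab1-KO replicate 2, 3 or 5 and without ApoE-Stab2-KO replicate 1, 2, 3, 4 or 5, with adjusted p up to 0.0901. None of the 7 protein-coding genes that hold or overlap these non-coding genes passed, Snord68's host Rpl13 included. Rpl13 itself read not far above the median level of all genes, as given below. Sources used here do not give the strand of the probes. Where genes overlap, the signal of one cannot be told apart from that of a partner on the other strand.

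**Figure D2:**
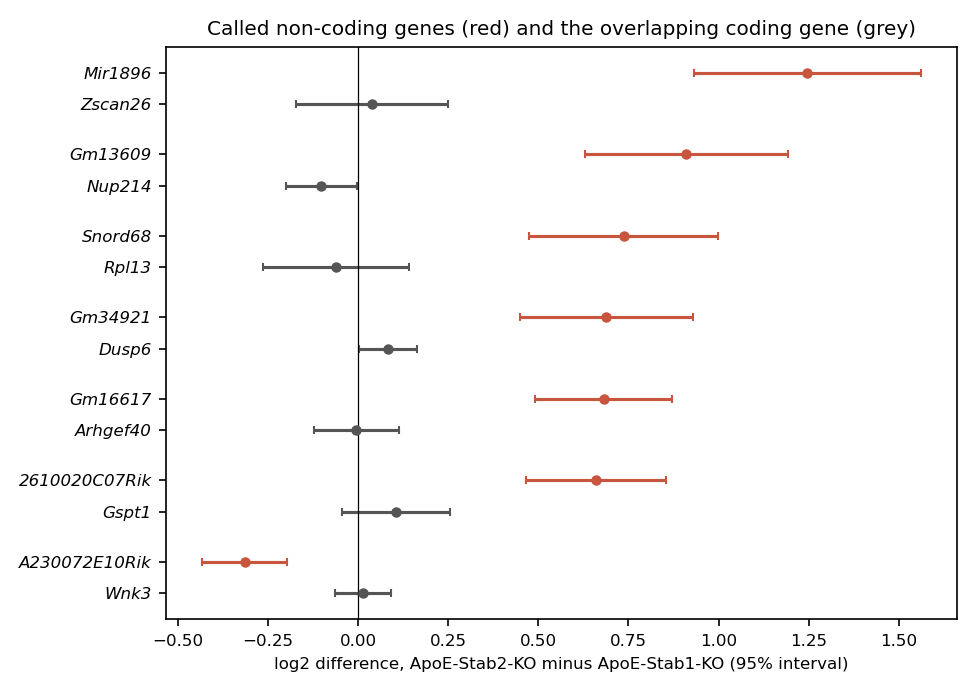
Points are log2 differences (ApoE-Stab2-KO minus ApoE-Stab1-KO) with their 95% intervals, for 7 non-coding genes past the threshold (red) and, under each, the protein-coding gene that holds or overlaps it (grey). The red intervals lie away from 0, from 1.25 for Mir1896 to -0.31 for A230072E10Rik, while the grey differences lie between -0.10 for Nup214 and 0.11 for Gspt1.

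Small nucleolar RNAs guide chemical modification of ribosomal and other RNAs, and many are cut from introns of genes for ribosomal proteins. Snord68 is one of these and lies within Rpl13. Its level was 8.60 to 9.30 (median 8.97) with ApoE-Stab1-KO plasma and 9.49 to 10.03 (median 9.68) with ApoE-Stab2-KO plasma. The groups did not overlap, and the difference was 0.74 ± 0.13 (1.67-fold, adjusted p = 0.0168, and 0.0642 without ApoE-Stab1-KO replicate 3). Rpl13 differed by -0.06 ± 0.10 (95% interval -0.26 to 0.14), with means of 4.71 and 4.65. Both means lay not far above the median level of all genes, 4.30. How well this probe set reads Rpl13 RNA was not tested, so the small difference says little about the host gene. A pair of other small nucleolar RNA genes came near the threshold, Snord66 (0.48 ± 0.10) and Snord47 (0.41 ± 0.09), with an adjusted p of 0.0681 each. Snord66 passed without ApoE-Stab1-KO replicate 4 (0.0445) or ApoE-Stab2-KO replicate 1 (0.044), and Snord47 without ApoE-Stab1-KO replicate 4 (0.0499) or 5 (0.0461). Among all 106 measured small nucleolar RNA genes, a class chosen after the values were seen, 26 were higher and 5 lower at an unadjusted p under 0.05 (24.5% and 4.72%, against 5.2% and 5.78% of all genes), and 1 passed the adjusted test. The class had a median difference of 0.10, against -0.0039 over all genes, and 74 of 106 differences were positive. Its mean level per array overlapped widely: 7.05 to 7.41 (mean 7.21 ± 0.13, SD, n = 6) in ApoE-Stab1-KO arrays and 7.06 to 7.65 (mean 7.34 ± 0.19, SD, n = 6) in ApoE-Stab2-KO arrays. The highest was ApoE-Stab2-KO replicate 5, and without it the difference of the means was 0.068 in place of 0.131, and the median difference 0.049. Without ApoE-Stab1-KO replicate 6 the median difference was 0.064. The class mean was 7.35 with ApoE-KO and 7.40 with wildtype plasma, so ApoE-Stab1-KO plasma had the lowest of the 4 group means. The other classes sat nearer 0, with medians of -0.01 for 534 microRNA genes, -0.01 for 3055 long non-coding RNA genes, 0.02 for 509 pseudogenes and -0.0039 for 19686 protein-coding genes.

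**Figure D3:**
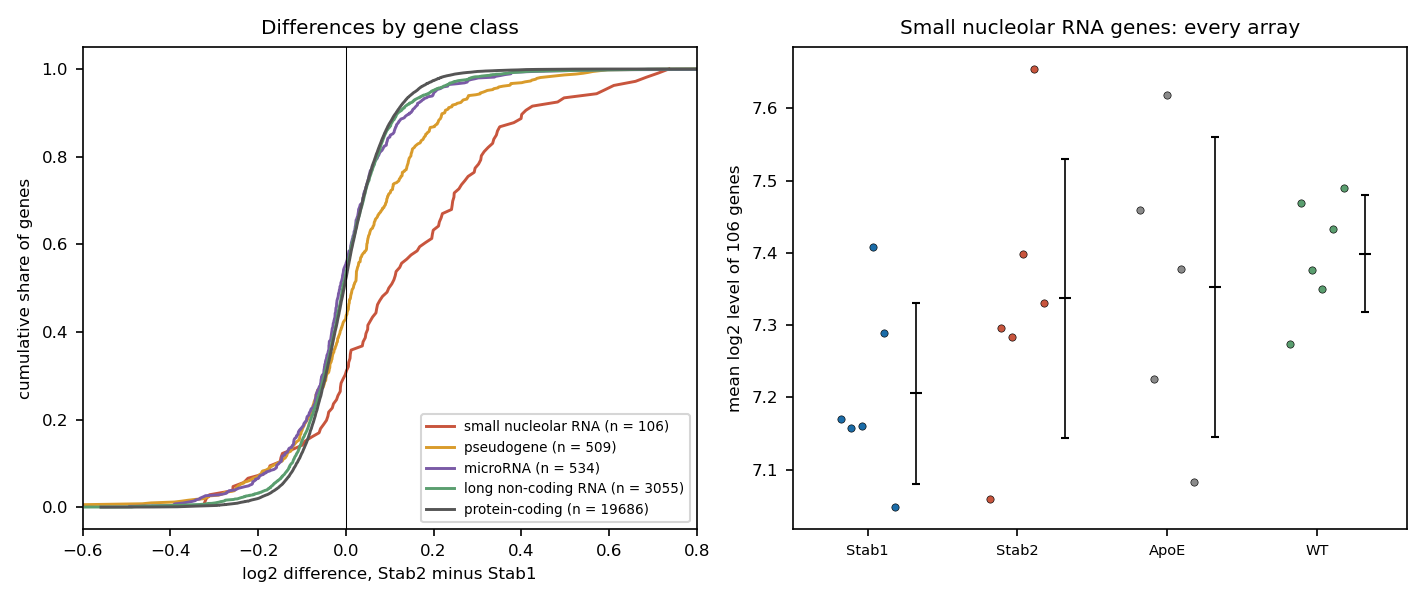
Left, the cumulative share of genes (vertical axis) against the log2 difference (horizontal axis) in 5 gene classes; the curve of the 106 small nucleolar RNA genes lies to the right of the others, with a median of 0.10. Right, the mean log2 level of those 106 genes in every array (dots) with group mean and SD (bars). ApoE-Stab1-KO arrays lie between 7.05 and 7.41 and ApoE-Stab2-KO arrays between 7.06 and 7.65. ApoE-KO arrays lie between 7.08 and 7.62 and wildtype arrays between 7.27 and 7.49.

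Rpl36-ps3 and Gm4540 are annotated as pseudogenes, copies of other genes that usually make no protein. Rpl36-ps3 lay at 10.99 to 11.56 (median 11.51) with ApoE-Stab1-KO plasma and 11.86 to 12.12 (median 11.96) with ApoE-Stab2-KO plasma. The groups did not overlap, and the difference was 0.56 ± 0.10 (1.48-fold, adjusted p = 0.0168). Its probes may also read its parent gene Rpl36 or other copies, so which transcript was higher is uncertain. Gm4540 lay at 8.81 to 9.11 (median 8.98) and at 9.21 to 9.42 (median 9.27), without overlap and with a small difference of 0.35 ± 0.06 (1.27-fold, adjusted p = 0.017). It did not pass without ApoE-Stab1-KO replicate 3 (0.0646) or ApoE-Stab2-KO replicate 2 or 3 (0.0638 and 0.0624). Of the 39 measured ribosomal protein pseudogenes, 9 were higher and 2 lower at an unadjusted p under 0.05 (23.1% and 5.13%, against 5.2% and 5.78% of all genes) and 1 passed, with a median of 0.10. Their mean level per array was 6.68 to 7.0 with ApoE-Stab1-KO plasma and 7.0 to 7.08 with ApoE-Stab2-KO plasma. The lowest value is that of ApoE-Stab1-KO replicate 1, the array that stood apart, and without it the difference of the means was 0.077 in place of 0.121 and the median 0.041. The group means were 6.90 with ApoE-Stab1-KO, 7.02 with ApoE-Stab2-KO, 7.02 with ApoE-KO and 6.98 with wildtype plasma, so ApoE-Stab1-KO plasma had the lowest. The 62 ribosomal protein genes themselves had 9 higher (14.5%), 3 lower (4.84%) and none past the test, with a median of 0.04 that ran from 0.018 to 0.062 with 1 array left out: 0.018 without ApoE-Stab1-KO replicate 6, 0.023 without ApoE-Stab2-KO replicate 3 and 0.062 without ApoE-Stab2-KO replicate 1. Both groups were chosen after the values were seen.

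Ecsit encodes a protein that helps assemble complex I of the mitochondrial respiratory chain and also takes part in signalling downstream of Toll-like receptors. It was the only protein-coding gene that passed as higher. Its level was 5.17 to 5.54 (median 5.36) with ApoE-Stab1-KO plasma and 5.70 to 6.14 (median 5.87) with ApoE-Stab2-KO plasma. Every ApoE-Stab2-KO array was above every ApoE-Stab1-KO array, and the difference was 0.53 ± 0.08 (1.44-fold, adjusted p = 0.00554). ApoE-KO and wildtype plasma gave intermediate means of 5.57 ± 0.09 and 5.66 ± 0.09 (SD). The overlapping long non-coding RNA gene Gm16845 differed by 0.08 ± 0.11 (adjusted p = 0.828). Of 14 complex I assembly genes, Ecsit was the only one with an unadjusted p under 0.05 (7.14% higher, against 5.2% of all genes). Ecsit was put on this list with its value in view, so that count was set by the choice. The median of the 14 was -0.03, and 9 of the differences were negative. Among 76 genes of respiratory chain subunits, 13 were higher and 1 lower at an unadjusted p under 0.05 (17.1% and 1.32%, against 5.2% and 5.78% of all genes), and none passed. Their median was 0.05, and their mean level was 7.84 ± 0.03 (SD, n = 6) in ApoE-Stab1-KO arrays and 7.90 ± 0.03 (SD, n = 6) in ApoE-Stab2-KO arrays. Uqcr10, a small subunit of complex III, had 0.36 ± 0.08 (adjusted p = 0.0681, and 0.0312 without ApoE-Stab1-KO replicate 5). The complex I subunit Ndufb11 had the largest difference of the list (0.43 ± 0.16, adjusted p = 0.301). These lists too were chosen after the values were seen.

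Aph1b encodes a subunit of gamma-secretase, the membrane protease that cuts Notch receptors and many other proteins. With ApoE-Stab1-KO plasma its level was 6.96 to 7.19 (median 7.07), and with ApoE-Stab2-KO plasma 6.55 to 6.92 (median 6.79). The arrays did not overlap, and the difference was -0.31 ± 0.05 (0.806-fold, adjusted p = 0.012). ApoE-KO arrays (6.82 to 6.90) and wildtype arrays (6.77 to 6.88) all lay below the lowest ApoE-Stab1-KO array. Its close copy Aph1c had a difference of -0.37 ± 0.16 (adjusted p = 0.387), and since the 2 genes are close paralogs, the split of signal between them is uncertain. In the list of Notch and angiogenesis genes, none of 30 passed. At an unadjusted p under 0.05, 2 were higher and 1 lower (6.67% and 3.33%, against 5.2% and 5.78% of all genes). These were Nrarp, a target and inhibitor of Notch (0.21 ± 0.07, adjusted p = 0.211), the Notch ligand Dll4 (0.16 ± 0.07, adjusted p = 0.41) and the chemokine receptor Cxcr4 (-0.18 ± 0.07, adjusted p = 0.294).

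Cgn encodes cingulin, which links tight junctions to the actin cytoskeleton. Its level was 4.81 to 5.55 (median 5.14) with ApoE-Stab1-KO plasma and 4.53 to 4.76 (median 4.67) with ApoE-Stab2-KO plasma. The groups did not overlap, and the ApoE-Stab1-KO arrays spread far more widely. The difference was -0.52 ± 0.09 (0.697-fold, adjusted p = 0.0269), and the gene passed in 8 of the 12 fits that left out 1 array, failing without ApoE-Stab2-KO replicate 2, 3, 4 or 5 (adjusted p up to 0.0907). Claudin-5, the main claudin of endothelial tight junctions, pointed the other way without passing. Cldn5 lay at 10.57 to 11.02 (median 10.91) with ApoE-Stab1-KO plasma and at 11.09 to 11.18 (median 11.15) with ApoE-Stab2-KO plasma, without overlap (difference 0.26 ± 0.06, adjusted p = 0.0813, and 0.0499 without ApoE-Stab1-KO replicate 4). Of 21 tight junction genes, chosen after the values were seen, 1 was higher and 3 lower at an unadjusted p under 0.05 (4.76% and 14.3%, against 5.2% and 5.78% of all genes), and Cgn alone passed.

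**Figure D4:**
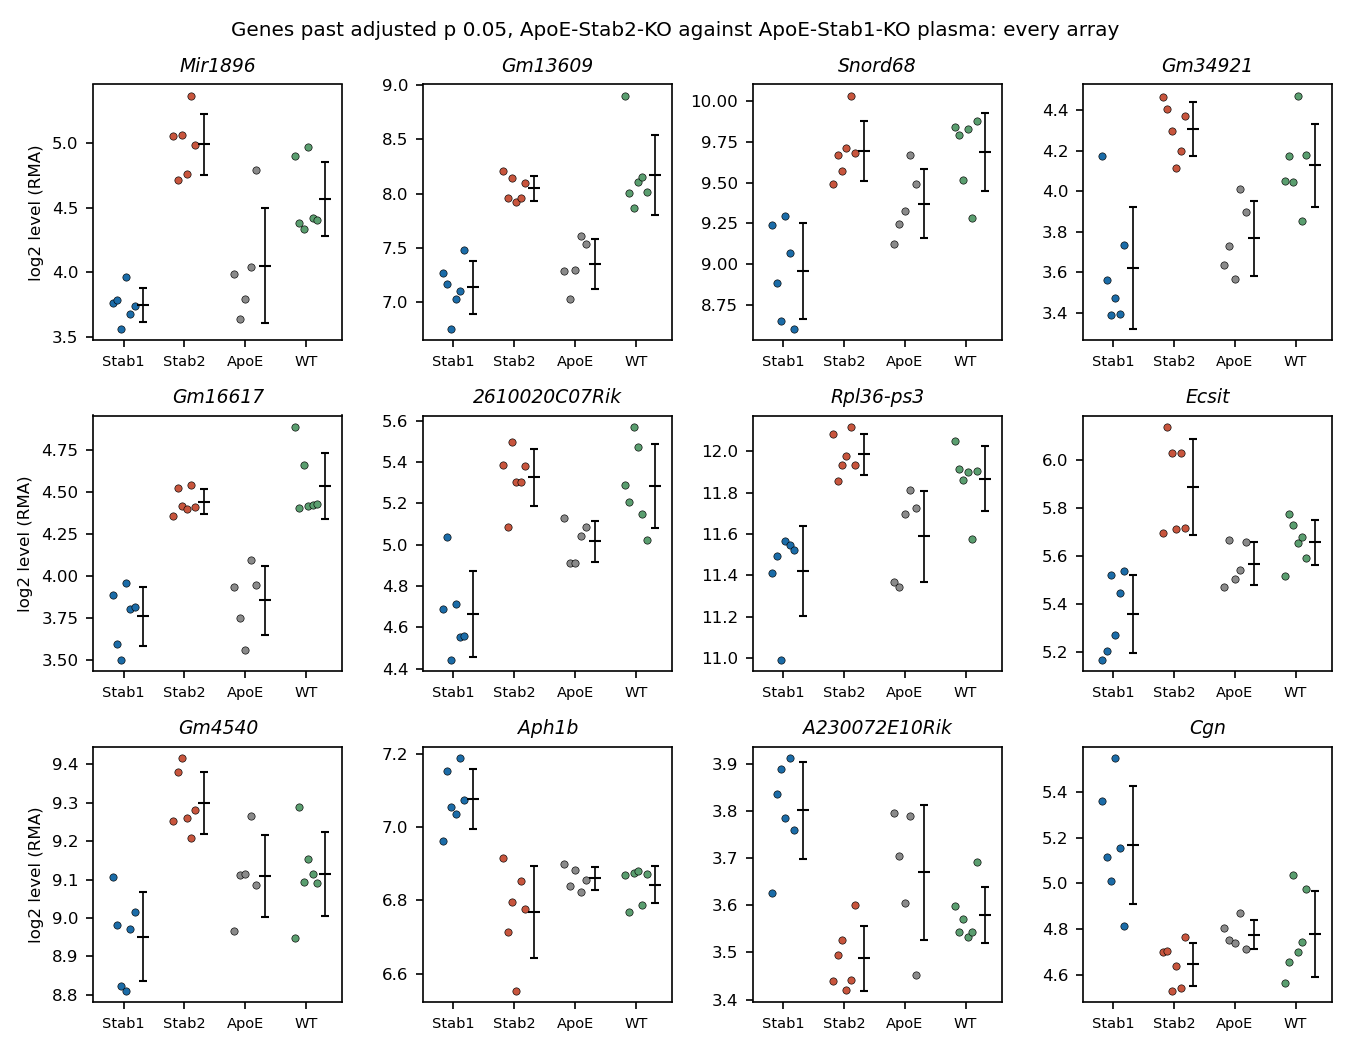
Log2 level (vertical axis) of the 12 genes past an adjusted p of 0.05 in every array, for plasma of ApoE-Stab1-KO, ApoE-Stab2-KO, ApoE-KO and wildtype mice; dots are arrays and bars are group mean and SD, and the vertical scale differs between panels. In 11 panels the ApoE-Stab1-KO and ApoE-Stab2-KO dots do not overlap, and in that of Gm34921 1 ApoE-Stab1-KO dot at 4.18 reaches into the ApoE-Stab2-KO range.

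The other plasmas placed these genes in a common order. In all 9 higher genes ApoE-Stab1-KO plasma had the lowest of the 4 group means, and in 7 ApoE-Stab2-KO plasma had the highest. In all 3 lower genes ApoE-Stab1-KO plasma had the highest mean and ApoE-Stab2-KO plasma the lowest. The ApoE-KO mean lay between the other two in all 12 genes and nearer to ApoE-Stab1-KO in 8, while the wildtype mean was nearer to ApoE-Stab2-KO in 11. The 12 genes were chosen for this very difference, which favours such an order, so the counts are a description without a test.

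As counted above, 6 genes had passed for ApoE-Stab2-KO against ApoE-KO plasma and 1 for ApoE-Stab1-KO against ApoE-KO plasma, and the present comparison tests directly whether the 2 knockouts' values differ there. Mir1896 and Gm16617 did differ, as given above. Hmgcs1, the HMG-CoA synthase gene of the early sterol pathway, did not pass: it lay at 9.39 to 9.68 (median 9.60) with ApoE-Stab1-KO plasma and at 9.44 to 9.64 (median 9.56) with ApoE-Stab2-KO plasma. The groups overlapped almost wholly (difference -0.03 ± 0.05, 95% interval -0.14 to 0.08, adjusted p = 0.893), although against ApoE-KO plasma only the ApoE-Stab2-KO value passed (-0.34, adjusted p = 0.026, against -0.31, adjusted p = 0.141). Dhcr7, the reductase that completes cholesterol synthesis, passed only for ApoE-Stab1-KO against ApoE-KO plasma (-0.38, adjusted p = 0.0259, against -0.23, adjusted p = 0.233). Between the 2 it differed by 0.15 ± 0.06 (95% interval 0.04 to 0.26), which did not pass (adjusted p = 0.31). The immune checkpoint receptor gene Havcr2 differed by -0.12 ± 0.07 (adjusted p = 0.511), the water channel gene Aqp4 by -0.13 ± 0.04 (adjusted p = 0.181) and the olfactory receptor gene Olfr372 by 0.17 ± 0.05 (adjusted p = 0.214). For these 5 genes no difference between the 2 knockouts' plasmas was shown.

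The Stabilins' own genes and those of their ligands were also read in the receiving cells. Stab1 lay at 9.90 to 10.18 with ApoE-Stab1-KO plasma and at 9.96 to 10.11 with ApoE-Stab2-KO plasma (difference 0.00 ± 0.05, 95% interval -0.10 to 0.11). Stab2 lay at 8.79 to 9.07 and 8.81 to 9.14 (-0.01 ± 0.07, 95% interval -0.15 to 0.12). The arrays of the 2 plasmas overlapped for both receptors. Among ligand genes, Tgfbi differed by 0.10 ± 0.07 (adjusted p = 0.597), Postn, the periostin gene, by -0.05 ± 0.05 (adjusted p = 0.77) and Reln, the reelin gene, by 0.01 ± 0.04 (adjusted p = 0.98). Of 10 measured Stabilin ligand genes, none reached an unadjusted p under 0.05. Apoe differed by -0.12 ± 0.08 (adjusted p = 0.623). Of 21 measured scavenger and lipoprotein receptor genes none passed, and 1, the macrophage scavenger receptor gene Marco, was lower at an unadjusted p under 0.05 (-0.17 ± 0.05, adjusted p = 0.168). That is 4.76% of the list, against 5.78% of all genes.

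Beyond these genes, 40 lists of pathway and marker genes were read (32 pathway and 8 marker lists, 651 measured genes). None of the 12 genes past the threshold was in any of them. The medians of the 32 pathway lists ran from -0.04 to 0.06, against -0.0039 for all genes.

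Interferon-stimulated genes, which cells switch on against viruses, held the largest count in 1 direction among these lists. Of 28 measured, 7 were lower and 2 higher at an unadjusted p under 0.05 (25% and 7.14%, against 5.78% and 5.2% of all genes), none passed, and the median was -0.03. Rsad2, which encodes the antiviral enzyme viperin, was the nearest to the threshold in any list. It lay at 6.29 to 7.0 (median 6.47) with ApoE-Stab1-KO plasma and at 5.89 to 6.23 (median 6.04) with ApoE-Stab2-KO plasma, without overlap. The difference was -0.51 ± 0.10 (adjusted p = 0.0522), and it passed without ApoE-Stab1-KO replicate 1, 2 or 4 (adjusted p = 0.0243, 0.0259 and 0.0445). Irf9, the DNA-binding subunit of the interferon-activated factor ISGF3, had -0.29 ± 0.07 (adjusted p = 0.124). Ifit3, an antiviral protein gene, had -0.30 ± 0.09 (adjusted p = 0.207), while Ifitm3, which blocks viral entry, had 0.19 ± 0.05 (adjusted p = 0.124). The mean level of the list overlapped between the plasmas, at 6.39 to 6.63 with ApoE-Stab1-KO plasma and 6.35 to 6.55 with ApoE-Stab2-KO plasma.

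ISGF3 and related factors bind interferon-stimulated response elements, whose core is often written GAAANNGAAA. Of the 7 interferon-stimulated genes lower at an unadjusted p, 5 had a promoter entry and could be searched. Rsad2 and Ifit3 were the ones of these 5 that hold this core in the 250 bases before the start. Stretches before their RefSeq start sites are therefore printed. They are written on the gene's own strand from GRCm38.p6, and capitals mark each match, which reads TTTCNNTTTC where it lies on the other strand. The Rsad2 stretch is chr12:26456533-26456602, minus strand, and the Ifit3 stretch is chr19:34583343-34583446, plus strand.
Rsad2 upstream: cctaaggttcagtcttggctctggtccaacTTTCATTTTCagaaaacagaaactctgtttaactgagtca
Ifit3 upstream: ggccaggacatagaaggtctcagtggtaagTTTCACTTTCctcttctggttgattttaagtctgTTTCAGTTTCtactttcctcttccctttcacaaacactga
Searched on both strands, the core stood before 10 of the 22 interferon-stimulated genes with a promoter entry, before 2 of the 5 with an entry that were lower at an unadjusted p, and before 3.46% of all 27025 genes with an entry (2.98% of 32851 promoters). A match is a description of the letters and not a shown binding site.

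Genes of TGF-beta and BMP signalling were followed because the ligand TGFBI is a TGF-beta target. None of 25 passed, and at an unadjusted p under 0.05, 2 were higher and 1 lower (8% and 4%, against 5.2% and 5.78% of all genes). Id1, a target of BMP signalling that blocks other transcription factors, lay at 9.06 to 9.59 (median 9.44) with ApoE-Stab1-KO plasma and at 9.69 to 9.83 (median 9.77) with ApoE-Stab2-KO plasma. Its arrays did not overlap, but its difference of 0.38 ± 0.08 did not pass (adjusted p = 0.0681). Id3, a gene of the same family, had 0.21 ± 0.10 (adjusted p = 0.429), and Smad5, which carries the BMP signal to the nucleus, had -0.13 ± 0.05 (adjusted p = 0.311).

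Of 26 endothelial identity genes, 3 were higher and 0 lower at an unadjusted p under 0.05 (11.5% higher, against 5.2% of all genes), and none passed. Their mean stood at 10.48 ± 0.05 (SD, n = 6) in ApoE-Stab1-KO arrays and 10.51 ± 0.04 (SD, n = 6) in ApoE-Stab2-KO arrays. Beside Cldn5, the 3 were the adaptor gene She (0.11 ± 0.05, adjusted p = 0.406) and the matrix protein gene Tinagl1 (0.10 ± 0.05, adjusted p = 0.431). Of 22 flow-responsive genes, 1 was higher and 1 lower at an unadjusted p under 0.05 (4.55% each, against 5.2% and 5.78% of all genes). These were Klf2, induced by laminar flow, at 0.13 ± 0.06 (adjusted p = 0.449), and the venous factor Nr2f2 at -0.10 ± 0.05 (adjusted p = 0.448). Of 5 measured lymphatic markers, 1 (20%, against 5.78% of all genes) was lower at an unadjusted p under 0.05, podoplanin (Pdpn, -0.29 ± 0.09, adjusted p = 0.229).

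**Figure D5:**
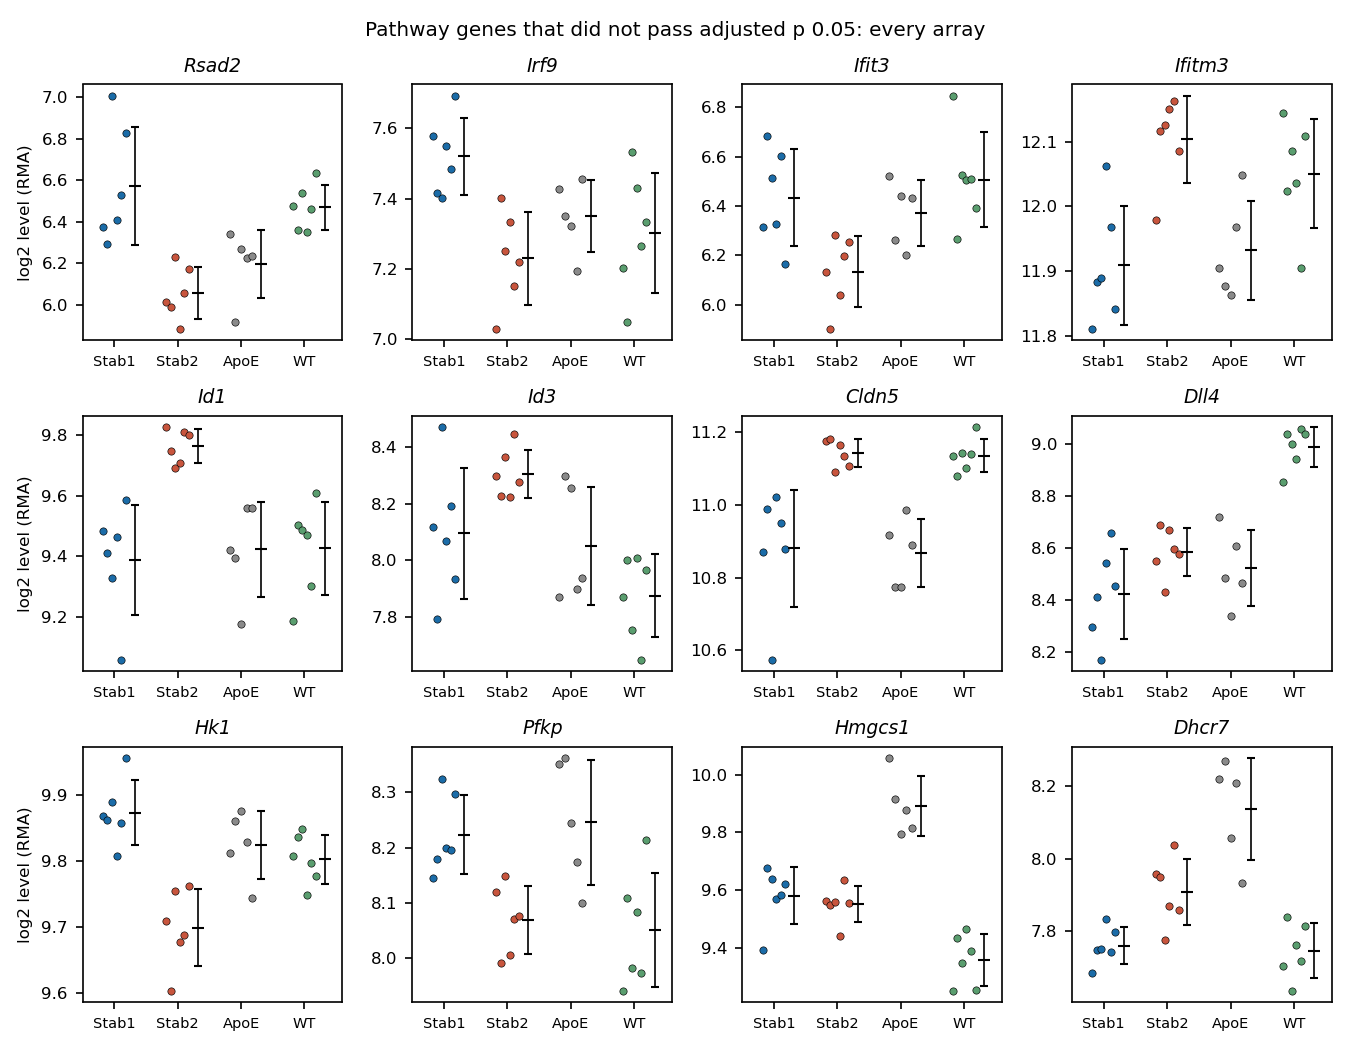
Log2 level (vertical axis) of 12 pathway genes, none past an adjusted p of 0.05, in every array of the 4 plasmas; dots are arrays, bars are group mean and SD, and the vertical scale differs between panels. Rsad2, Id1, Cldn5 and Hk1 have ApoE-Stab1-KO and ApoE-Stab2-KO arrays that do not overlap, while those of Hmgcs1 lie on top of each other, at means of 9.58 and 9.55.

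No lipid gene on the lists passed the test. Of 17 measured enzymes of cholesterol synthesis, 2 (11.8%, against 5.2% of all genes) were higher at an unadjusted p under 0.05. They were Dhcr7 as given above and Idi1, which makes an isoprenoid building block (0.34 ± 0.13, adjusted p = 0.318). Averaged over the enzymes, ApoE-Stab1-KO arrays stood at 7.84 ± 0.05 (SD, n = 6) and ApoE-Stab2-KO arrays at 7.87 ± 0.03 (SD, n = 6), and the arrays overlapped. With ApoE-KO plasma the same mean was 8.05 ± 0.07 (n = 5). The 15 fatty acid synthesis genes held 1 that was higher at an unadjusted p under 0.05 (6.67%, against 5.2% of all genes). The 12 genes of cholesterol efflux and LXR targets held 1 that was lower (8.33%, against 5.78% of all genes).

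Metabolic and stress genes held none past the test, and their counts at an unadjusted p under 0.05 stand against 5.2% of all genes for higher and 5.78% for lower. Hexokinase 1 (Hk1), which starts glycolysis, lay at 9.81 to 9.96 (median 9.86) with ApoE-Stab1-KO plasma and at 9.60 to 9.76 (median 9.70) with ApoE-Stab2-KO plasma. Its arrays did not overlap, but the difference of -0.17 ± 0.04 did not pass (adjusted p = 0.0681). The phosphofructokinase gene Pfkp (-0.15 ± 0.05, adjusted p = 0.266) and Egln1, an oxygen sensor of the hypoxia pathway (-0.12 ± 0.06, adjusted p = 0.448), were the other two of 25 hypoxia and glycolysis genes below an unadjusted p of 0.05 (12% lower). Among 25 genes of the ATF4 and amino acid response, 3 were higher (12%) and 2 lower (8%). The glycine transporter gene Slc6a9 had -0.27 ± 0.07 (adjusted p = 0.108), the serine-to-glycine enzyme gene Shmt2 0.16 ± 0.06 (adjusted p = 0.323), the amino acid transporter subunit Slc3a2 0.12 ± 0.05 (adjusted p = 0.372) and the transcription factor gene Cebpb 0.15 ± 0.06 (adjusted p = 0.388). Of 19 chaperone genes, 3 were lower (15.8%) and 0 higher: Hspa5, the main chaperone of the endoplasmic reticulum (-0.15 ± 0.05, adjusted p = 0.236), calnexin (Canx, -0.07 ± 0.03, adjusted p = 0.439) and Dnajb9 (-0.14 ± 0.06, adjusted p = 0.443). Of 19 p53 targets, 3 were lower (15.8%) and 0 higher, led by the cell death gene Pmaip1 (-0.18 ± 0.06, adjusted p = 0.298).

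The 22 immediate early genes, which respond first to stimuli, had the highest median of the pathway lists, 0.06, with 16 positive differences, 3 of them at an unadjusted p under 0.05 (13.6%, against 5.2% of all genes) and none past the test. They were Klf6 (0.21 ± 0.07, adjusted p = 0.259), Fosb (0.19 ± 0.07, adjusted p = 0.272) and Jund (0.16 ± 0.07, adjusted p = 0.396), all transcription factors. In the NF-kB list of 19, 2 were higher (10.5%, against 5.2% of all genes) and 0 lower at an unadjusted p under 0.05. They were the inhibitor gene Tnfaip3 (0.20 ± 0.07, adjusted p = 0.269) and the TNF receptor gene Tnfrsf1a (0.17 ± 0.07, adjusted p = 0.369). Of 25 adhesion molecules and chemokines, only the hyaluronan receptor gene Cd44 was below an unadjusted p of 0.05 (-0.19 ± 0.06, adjusted p = 0.208). That is 4% lower, against 5.78% of all genes. Of 33 matrix genes, 1 was higher and 2 lower at an unadjusted p under 0.05 (3.03% and 6.06%, against 5.2% and 5.78% of all genes). Lama4, a laminin chain of vessel basement membranes, had -0.15 ± 0.04 without overlap of its arrays (adjusted p = 0.11), the collagen gene Col1a1 had -0.17 ± 0.08 (adjusted p = 0.455), and Timp1, an inhibitor of matrix proteases, had 0.26 ± 0.07 (adjusted p = 0.145). Of 19 semaphorin and receptor genes, 1 was lower and 1 higher (5.26% each, against 5.78% and 5.2% of all genes). Sema3a had -0.19 ± 0.06, also without overlap (adjusted p = 0.247), and the plexin gene Plxnb2 had 0.12 ± 0.05 (adjusted p = 0.372).

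Size alone did not make a gene pass. Above the median level, the largest differences in genes with an ordinary name belonged to Vmn1r127, a vomeronasal receptor gene (1.07 ± 0.23, adjusted p = 0.0681), the pseudogene Apoo-ps (1.05 ± 0.28, adjusted p = 0.139), Ublcp1 (0.78 ± 0.25, adjusted p = 0.226), the interferon-inducible gene Ifi207 (0.76 ± 0.23, adjusted p = 0.19) and the pseudogene Rybp-ps (0.76 ± 0.19, adjusted p = 0.117). On the lower side were the pseudogene Rps12-ps24 (-0.81 ± 0.25, adjusted p = 0.196), the olfactory receptor pseudogene Olfr75-ps1 (-0.60 ± 0.23, adjusted p = 0.325) and the antibody segment Ighv1-12 (-0.58 ± 0.16, adjusted p = 0.164), then Cgn and Rsad2. These genes scattered widely between replicates, as in Apoo-ps, whose ApoE-Stab1-KO arrays ran from 4.26 to 6.26. Just outside the threshold stood Mydgf, which encodes a secreted growth factor. It lay at 8.34 to 8.60 (median 8.41) and at 8.65 to 8.75 (median 8.69), without overlap, with a difference of 0.25 ± 0.05 (adjusted p = 0.0509). It passed without ApoE-Stab1-KO replicate 1 (adjusted p = 0.00881) or replicate 6 (0.0269), and Vmn1r127 and Rybp-ps passed without ApoE-Stab1-KO replicate 4 (0.0499 each).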

How the data were processed

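RNA of 23 samples was measured on single-colour arrays. RMA made the deposited log2 values, per the submitters' processing notes; its version and the build behind the probe annotation were not among the sources used here. RMA sets every array to 1 distribution of values, so a change common to all genes cannot appear. Of 25428 probe sets, 24705 had 1 symbol in the platform annotation and 723 had none and were left out, and where 1 symbol stood on several probe sets the brighter was kept, which left 24704 genes. RefSeq (GRCm38.p6) gave the class of 24672 of these genes, and overlaps and sequences where it had them. Whether a site is exonic or intronic was not analysed here.

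Groups came from the labels. Tests used limma 3.58.1 in R 4.3.3 (lmFit and eBayes, 19 residual and 4.19 prior degrees of freedom) with 1 mean for each of the 4 groups over all 23 arrays. Benjamini-Hochberg adjustment ran over all 24704 genes, without a filter on dim genes. Adjusted p-values beside genes are from this fit, and no p was adjusted over a list. Precision is limited by the number of arrays: the median SE of a difference was 0.07. Across all 25428 probe sets, the 12 arrays of the 2 plasmas correlated at 0.992 to 0.997 within a group and at 0.994 to 0.997 between the groups. None of the 23 arrays held values identical to another. The fit was tested on simulated data. Plots used Python 3.11.15 with matplotlib 3.10.9.

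The members, gene lists, tests and naming rule were chosen with earlier results of these data known. The rule took the 10 highest and 10 lowest of the genes past the threshold, leaving out predicted (Gm), Riken and small RNA names; the 5 smallest p among the names left out; Apoe, Stab1, Stab2, Tgfbi, Postn and Reln; genes past the threshold for either knockout against ApoE-KO plasma; up to 4 members with the smallest p per list; and the 5 largest differences each way above the median level. Snord68, Gm4540, A230072E10Rik, Mydgf, Snord47, Snord66, Uqcr10, Ndufb11, Aph1c and the overlapping genes were picked with their values in view. The alternatives tried were the 12 arrays alone, a replicate block, quantile normalization again, median centring, genes above the median level, trend and robust settings, array weights, each probe set apart, protein-coding genes only, and each of the 12 arrays left out, which for the classes and lists chosen after the values were seen was added after seeing the data.

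Replicate numbers were checked for pairing: the deviations of the 6 same-numbered arrays of the 2 plasmas correlated at -0.08 to 0.06, and 0 of 6 pairs exceeded 0.1. No pairing was thus seen across genes as a whole. The labels state no pairing, and the check cannot exclude a shared batch that moved only some genes.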

Additional observations from a re-analysis of the deposited data

Results flagged for a closer look

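In groups of 5 or 6 arrays, a value was singled out where its gap to the nearest other array, divided by the group's range, passed Dixon's 95% critical value; chance alone does this in about 1 of 20 groups, and 9 of 192 groups (4.7%) were singled out here. ApoE-Stab1-KO replicate 3 was low in Rpl36-ps3 (10.99, other arrays 11.41 to 11.56), in Cldn5 (10.57, others 10.87 to 11.02) and in the mean of the endothelial identity genes (10.39, others 10.47 to 10.52). ApoE-Stab1-KO replicate 4 was high in Nrarp (9.43, others 9.21 to 9.29). ApoE-Stab1-KO replicate 1 was high on the first principal component (29.2, others -11.6 to 0.35). ApoE-Stab2-KO replicate 1 was low in Tnfrsf1a (10.91, others 11.08 to 11.19) and high in Rpl13 (4.79, others 4.58 to 4.65), replicate 3 in Apoe (5.41, others 4.93 to 5.08) and replicate 5 in the mean of the ribosomal protein pseudogenes (7.08, others 7.0 to 7.02). Without ApoE-Stab1-KO replicate 3, Rpl36-ps3 still passed and Cldn5 did not. What sets these arrays apart was not tested.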

How the results depend on the processing

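Counts were recomputed under up to 21 settings. The 12 genes became 4 (4 higher, 0 lower) with the 12 arrays alone, 21 (16 and 5) with trend and robust settings and 2 (1 and 1: Ecsit, Aph1b) among protein-coding genes. Above the median level, where fewer genes were tested, 5 genes were lower, 1671 had an unadjusted p under 0.05 and 11997 an interval within 1.5-fold. These are counts and not shares, so they cannot be set directly against the counts over all genes. With 1 array left out, 8 to 37 genes passed (6 to 22 higher, 1 to 15 lower), 19 without ApoE-Stab2-KO replicate 6. In the same fits 261 to 409 genes had arrays without overlap, which fewer arrays favour, and 2364 to 3049 an unadjusted p under 0.05. Mir1896, Gm16617, 2610020C07Rik and Gm13609 passed under every setting that tested them. Gm16617, Gm34921 and A230072E10Rik lay below the median level, so the fit of genes above it did not test them. Ecsit and Aph1b failed only with the 12 arrays alone (adjusted p = 0.0963 and 0.135), and Rpl36-ps3 also with the replicate block. The smallest numbers of passes were 13 of 19 for Cgn and 8 of 18 for A230072E10Rik. The replicate block left 9 genes, 8 of them among the 12, and Rsad2 was the ninth (adjusted p = 0.00472). Across genes, 1 of 6 ApoE-Stab1-KO arrays correlated best with its own number. Whether samples of the same number share a batch was not tested. Rsad2 passed in 6 of 19 settings and Mydgf in 7 of 19. List medians held in 715 of 718 recomputed values; above the median level those of LXR targets, retinoid genes and red blood cell and platelet markers became -0.12, 0.044 and 0.13. With 1 array left out, the sign changed for 6 differences near 0, which ranged from -0.047 to 0.085 for Zscan26, -0.022 to 0.015 for Arhgef40, -0.15 to 0.027 for Rpl13, -0.021 to 0.034 for Stab1, -0.060 to 0.013 for Stab2 and -0.013 to 0.027 for Reln. The causes were not tested. The number of arrays limits what could be seen: with a median SE of 0.07, the smallest difference that passed was 0.31 in size.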
